A study of Mus musculus with 4 samples.

Results

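Molecular chaperones were compared between wild-type and E2f4 knockout mouse neurospheres. The genes were chosen by their symbols: heat shock proteins (Hspa, Hspb, Hspd, Hspe, Hsph and Hsp90 genes), J-domain proteins of classes A, B and C (Dnaja, Dnajb, Dnajc), subunits of the chaperonin CCT (Cct genes and Tcp1), prefoldin subunits (Pfdn) and the Bag co-chaperones. This gave 91 of the 18193 genes that a probe set named with a single symbol. They were covered by 216 probe sets, 160 on the MOE430A array and 56 on MOE430B. Here and below, a probe set that is on both designs is counted separately for each.

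The neurospheres, floating cultures of neural stem and progenitor cells, came from the ventral telencephalon of the forebrain at E12.5, counted in days of embryonic life. One group was wild type. The other was labelled knockout for E2f4, a transcription factor of the E2F family best known as a repressor of cell cycle genes. The knockout allele, the strain, the number of embryos behind each culture and the time in culture are not given in the sources used here. There was 1 RNA sample per genotype, each hybridised to both array designs, which made 4 arrays. No test across samples was therefore possible, and every difference below is a difference between 2 RNA samples that may not be one between genotypes. The only measure of error was the spread between probe sets of the same gene, with a pooled standard deviation (SD) of 0.33 on the log2 scale over all genes with more than 1 measured probe set.

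Chaperones help other proteins fold and keep unfolded ones from clumping. HSP70 binds exposed stretches of a client in cycles driven by ATP. J-domain proteins bring it clients and start its ATP hydrolysis, and HSP110 and most Bag proteins make it release its nucleotide. HSP90 acts on clients that are nearly folded. Prefoldin passes new actin and tubulin chains to CCT, a double ring of 8 kinds of subunit in which these proteins fold. Dividing and differentiating neural cells make much actin and tubulin. Under stress, heat shock factor 1 raises the inducible members, while stress of the endoplasmic reticulum raises a separate set through its own sensors.

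Values are MAS5 signals on a linear scale. A probe set was called measured where both arrays of its design were no dimmer than a floor of 735.5 for MOE430A and 941.6 for MOE430B, which is the median over its signals. The ratio of knockout over wild type was taken to log2 and centred on the median of the design, which shifted it by 0.009 and -0.004. A gene's value is the mean over its measured probe sets. Signals are compared only within a probe set, since probe sets differ in their response. Over all genes 10171 were measured, with a median log2 ratio of -0.01. The lowest of them was Xist, the RNA of the inactive X chromosome of female cells, at -2.94. The sex of the embryos is not among the labels used here, and its part in the chaperone values was not tested. The E2f4 probe set gave signals of 1812 (wild type) and 1535 (knockout), or -0.25 in log2, and its position relative to the deleted part is not given, so it does not check the label. Of the markers of neural stem and progenitor cells, 5 of 6 had a higher knockout signal (median log2 ratio 0.14). All 4 measured markers of the ventral telencephalon were lower (-0.46), as were all 3 embryonic globin genes that mark red blood cells (-0.52), and 4 of 5 neuron markers (-0.16). The globin signals were high in both samples, from 89830 to 69940 on the brightest Hbb-y probe set and from 27120 to 18980 for Hba-x. Both samples therefore held embryonic globin RNA. The part of these marked cell types in the chaperone values was not tested. In RNA from whole cultures, fewer cells of a type and less RNA per cell cannot be told apart.

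Most chaperone genes were expressed in both samples, and their signals lay close together. Of the 91 genes, 69 were measured, 4 had a signal above the floor on 1 array alone, and 18 were below it on every array. The genes above it on 1 array were Bag3, Dnajc22, Dnajc28 and Hspa2. Those below it were Hspa1a, Hspa1b, Hspa1l, Hspa12b, Hspb2, Hspb3, Hspb7, Hspb9, Hspb11, Dnaja4, Dnajb3, Dnajb7, Dnajb13, Dnajc5b, Dnajc12, Dnajc16, Dnajc24 and Cct6b, several of which are best known from testis or muscle. The measured genes had a median log2 ratio of 0.04, and 42 of them (60.9%) were higher in the knockout sample, where 48.6% of all measured genes were. Their quartiles, -0.16 and 0.17, lay close to those of all genes, -0.19 and 0.17. None of the 69 was 2-fold higher or 2-fold lower, against a background of 0.531% of all measured genes that were at least 2-fold higher and 0.482% that were at least 2-fold lower, so a count of 0 is near what that background gives. At 1.5-fold, a limit added after the values were seen, Cct8l1 was higher and Dnajc6 and Bag5 were lower, where the background was 3.4% of genes higher and 3.89% lower.

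**Figure D1:**
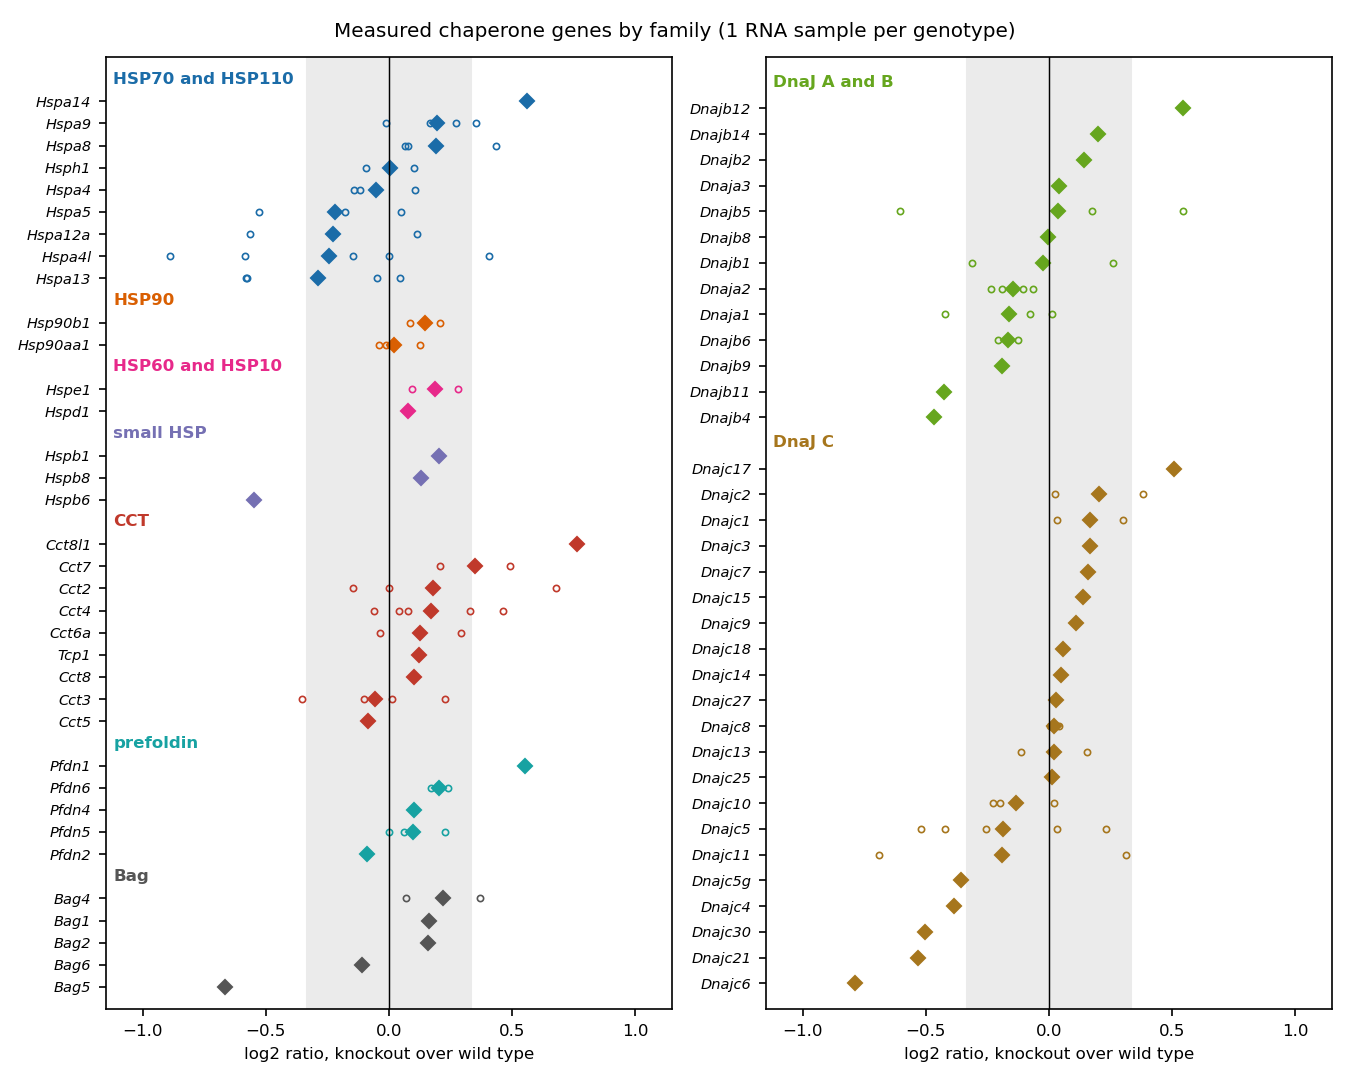
Each measured chaperone gene is a row, and the horizontal axis is the knockout over wild-type ratio in log2. Filled diamonds are gene means, open circles the measured probe sets of genes with more than 1, and the grey band is the pooled probe set SD (0.33 to each side). Of 69 genes, 54 lie inside the band, 6 above it and 9 below it.

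Few genes lay farther from 0 than the spread between probe sets. The log2 ratio of 54 of the 69 genes (78.3%) was within 0.33 of 0, where 75.01% of all measured genes were. Of the 31 chaperone genes with more than 1 measured probe set, 10 had them all higher in the knockout sample, 2 had them all lower, and 19 had probe sets on both sides of 0. The share on 1 side, 38.7%, was close to the 42.1% found over 3956 genes in all. Where a gene was measured on both designs, the sign was the same for 9 of 13.

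**Figure D2:**
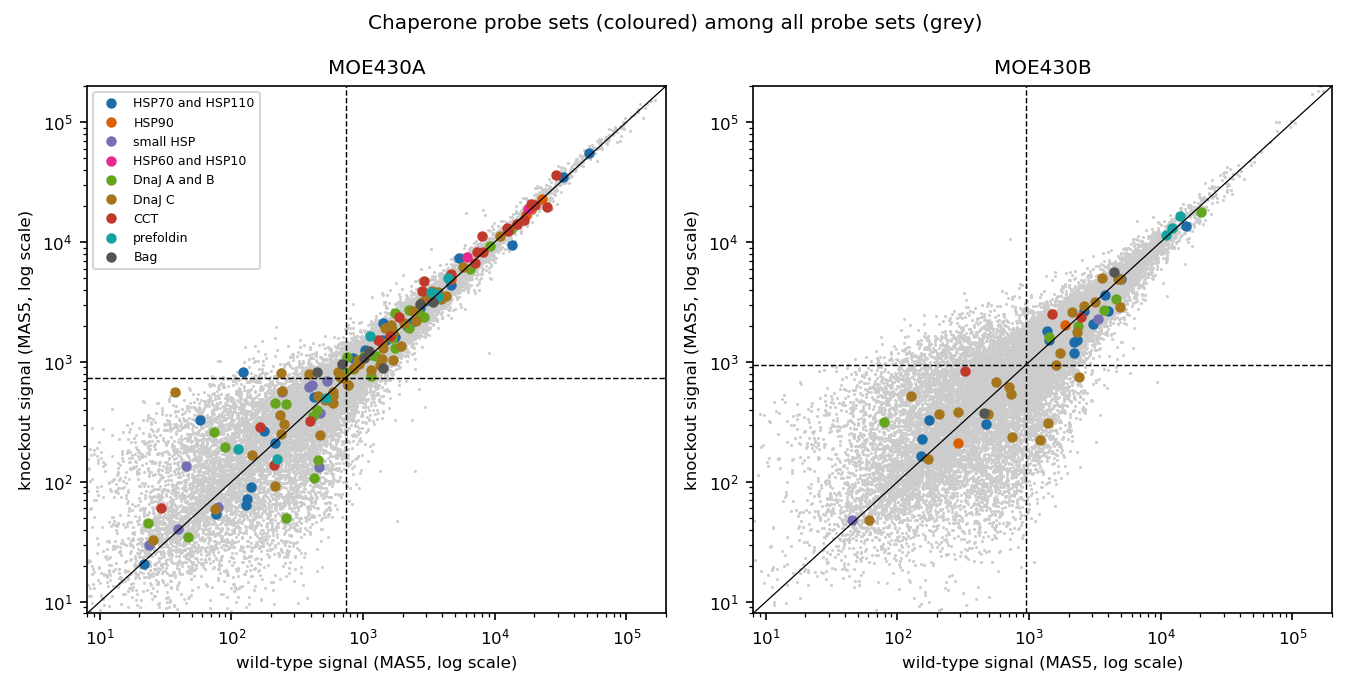
Each point is a probe set, with its wild-type signal on the horizontal and its knockout signal on the vertical axis, both in MAS5 units on a log scale. Coloured points are chaperone probe sets by family, grey points all probe sets, dashed lines the floor (735.5 and 941.6) and the solid line equal signals. Signals under 8 are not drawn. Of 216 chaperone probe sets, 129 are above both floors, and these lie along the line of equal signals.

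The spread between chaperone ratios was smaller at brighter signals. Grouped after the values were seen by the geometric mean of both signals, the 45 measured probe sets under 2000 had an SD of 0.39 in log2 ratio. The 52 between 2000 and 5000 had an SD of 0.30, and the 32 above 5000 one of 0.20. Over all single-symbol probe sets the same classes gave 0.39, 0.35 and 0.25.

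In the HSP70 and HSP110 family, 9 of 14 genes were measured, 4 higher and 5 lower in the knockout sample (median log2 ratio -0.05). The constitutive cytosolic HSP70, Hspa8, was high on all its measured probe sets. Its brightest went from a wild-type signal of 51838 to a knockout signal of 55061, the next from 33208 to 34968, and the dimmest from 5378 to 7307. All 3 were higher in the knockout sample, and the mean log2 ratio was 0.19 ± 0.21 (SD, n = 3 probe sets). Hspa9, the mitochondrial HSP70 or mortalin, was higher by 0.20 ± 0.16 (SD, n = 4 probe sets), with 3 of its probe sets between 0.17 and 0.36 and the MOE430B probe set at -0.01.

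Hspa14, an HSP70 that works at the ribosome together with the J-domain protein Dnajc2, had the largest ratio of the family. Its measured probe set went from 1426 to 2119.8, or 0.56 in log2. Its further probe sets were below the floor, at -0.49 and 0.56, so that the value rests on 1 probe set. Dnajc2 itself was higher by 0.38 on one probe set (1472 to 1931) and by 0.03 on the other (1697 to 1739.9).

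The 3 lowest genes of the family were Hspa13, an HSP70-like protein of the endoplasmic reticulum, Hspa4l, an HSP110, and Hspa12a, a divergent HSP70 found in brain. Hspa13 averaged -0.29 ± 0.33 (SD, n = 4 probe sets). A pair of probe sets, 2296 to 1531 and 3949 to 2644, were at -0.58 each, and the other pair, 2598 to 2673 and 3781 to 3647, were at 0.05 and -0.05. Hspa4l averaged -0.24 ± 0.51 (SD, n = 5 probe sets), from -0.89 (2194 to 1181) to 0.40 (1363 to 1799.8). Hspa12a averaged -0.23 ± 0.48 (SD, n = 2 probe sets), with 3081 to 2078 on one and 1406 to 1517 on the other. For all 3, the probe sets of the same gene disagreed by more than the mean differed from 0. The remaining HSP110 genes, Hsph1 and Hspa4, were at 0.004 and -0.05.

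The HSP90 genes analysed here, Hsp90aa1 and Hsp90b1, were bright and nearly equal between samples, and no other HSP90 gene of the cytosol was analysed here. Hsp90aa1, the inducible cytosolic form, went from 22702 to 22911, from 18814 to 18751, from 17310.5 to 16944 and, on MOE430B, from 1857 to 2022. Its mean log2 ratio was 0.02 ± 0.07 (SD, n = 4 probe sets), the tightest set of probe sets of any chaperone gene with as many. Hsp90b1 or GRP94, which works in the endoplasmic reticulum, went from 4638 to 4955 and from 3360.31 to 3901. Both probe sets were higher in the knockout sample, at 0.15 ± 0.08 (SD, n = 2 probe sets).

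Of the 8 small heat shock proteins, which hold unfolded proteins without using ATP, only 3 were measured. Hspb1 went from 1597 to 1850.05 (0.20), Hspb8 from 894 to 984 (0.13) and Hspb6 from 3330.21 to 2268 (-0.55). Each rests on 1 probe set. The crystallins Cryaa and Cryab, of the same protein family, were below the floor on every array. Hspb11, selected by its symbol, is not a classical small heat shock protein and was below the floor.

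The stress-inducible members, the textbook targets of heat shock factor 1, were on neither side as a group. Hspa1a and Hspa1b, the HSP70 genes with the strongest heat shock response, were below the floor in both samples. Hspa1a went from 129 to 64.7, and the 3 Hspa1b probe sets from 215 to 211, from 141 to 89.8 and from 176 to 267. These genes are near-identical copies, so which of them a probe set reads is uncertain. Of the 14 such genes with a probe set, 11 were measured, 7 higher and 4 lower, with a median log2 ratio of 0.02. They ranged from -0.47 for Dnajb4 (3736 to 2696) to 0.20 for Hspb1.

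Dnajb1, the inducible J-domain partner of HSP70, had 2 probe sets on opposite sides: 2232 to 2689 (0.26) and 2899.7 to 2353 (-0.31). Dnaja1, another cytosolic partner, was at -0.16 ± 0.23 (SD, n = 3 probe sets). Bag3, which links HSP70 to small heat shock proteins, passed the floor on the knockout array only, 955 against 692, at least 1.30-fold higher. Among genes outside the family, Hsf2 was at 0.01, Hsf5 at -0.10 and the heat shock factor binding protein Hsbp1 at -0.17. Hsf4 was below the floor. Hsf1, the gene of heat shock factor 1 itself, had no probe set named with its symbol alone.

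Promoter sequences from RefSeq (GRCm38.p6) were matched by symbol for 75 of the 91 genes. Each window ran from 250 bases before to 50 after the start of the gene, with 97 windows for the 75 genes. Both strands were searched for the inverted repeats GAANNTTC and TTCNNGAA that form the core of a heat shock element. At least 1 such word was found in 21 of the 75 genes (28%), in 10 of the 12 stress-inducible genes with a promoter (83.3%), in 15% of the 14452 genes that the arrays name with a single symbol and that have a promoter, and in 17% of the 27025 genes of the table. Joined words, in which a repeat overlaps the next, were found in Hspd1, Hspe1, Hsph1 and Dnajb6, or 5.33% of the chaperone genes against 0.609% of the arrays' genes and 0.662% of all genes. The 3 promoters below, cut to the 200 bases before the start, were chosen after the values were seen. They show a gene below the floor with 1 word (Hspa1b), a gene at 0.004 (Hsph1) and the gene with joined words before its start (Hspe1). Capitals mark the heat shock words.
Hspa1b (chr17:34959239-34959438, minus strand): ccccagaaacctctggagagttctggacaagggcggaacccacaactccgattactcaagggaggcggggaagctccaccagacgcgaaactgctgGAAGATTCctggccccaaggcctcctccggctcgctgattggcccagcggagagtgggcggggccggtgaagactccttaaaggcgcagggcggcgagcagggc
Hsph1 (chr5:149636337-149636536, minus strand): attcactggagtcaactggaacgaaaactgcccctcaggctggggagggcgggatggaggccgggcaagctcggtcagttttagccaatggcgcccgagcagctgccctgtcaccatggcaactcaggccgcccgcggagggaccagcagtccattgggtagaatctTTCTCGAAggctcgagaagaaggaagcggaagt
Hspe1 (chr1:55087948-55088147, plus strand): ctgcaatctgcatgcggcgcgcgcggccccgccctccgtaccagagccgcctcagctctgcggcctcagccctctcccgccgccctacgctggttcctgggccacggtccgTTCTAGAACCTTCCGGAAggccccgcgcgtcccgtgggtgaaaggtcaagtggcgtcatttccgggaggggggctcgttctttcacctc

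In Hspe1 the words TTCTAGAA, GAACCTTC and TTCCGGAA begin 89, 84 and 79 bases before the start and run into each other. Hspe1 lies head to head with Hspd1 on chromosome 1, with starts 216 bases apart for the annotated Hspd1 form whose window holds these words, so the same bases count for both genes. A further annotated Hspd1 start lies beyond the start of Hspe1, and its window holds no heat shock word. The word of Hspa1b begins 104 bases before its start, and the printed word of Hsph1 33 bases before. The joined words of Hsph1, TTCTGGAA and GAAAGTTC, lie after its start and so outside the printed bases. Of the measured genes with such a word, 9 of 16 were higher (median log2 ratio 0.02), and of those with a promoter but no word, 25 of 41 (0.04).

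The mitochondrial chaperonin genes Hspd1 (HSP60) and Hspe1 (HSP10), which form a folding chamber in the matrix, were both higher in the knockout sample. Hspd1 went from 17784 to 18869 (0.08). Hspe1 went from 6182 to 7559 on one probe set and from 3169 to 3401 on the other, at 0.19 ± 0.13 (SD, n = 2 probe sets). Of 7 measured mitochondrial members, 5 were higher and 2 lower, with a median of 0.08. The lowest was Dnajc30, from 1336 to 948 (-0.50). Dnajc11, a protein of the outer membrane and cristae contacts, had probe sets at 0.31 and -0.69, and 2 on MOE430B that passed the floor on the wild-type array only, with bounds of at least 1.48-fold and 1.28-fold lower in the knockout. Among mitochondrial chaperones and proteases not chosen by the symbol rule, 1 of 6 was higher and 5 lower, with a median of -0.14.

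Chaperones of the endoplasmic reticulum did not lie on 1 side. Of the 8 measured members of the list used here, mostly proteins of its lumen, 5 were lower and 3 higher in the knockout sample (median -0.16), where 51.4% of all measured genes were lower. The list left out Dnajb12 and its relative Dnajb14, J-domain proteins of the same membrane. With these added, after the values were seen, 5 were lower and 5 higher and the median was 0.005. Hspa5 or BiP, the HSP70 of this compartment, was lower on its brightest MOE430A probe set, 13503 to 9418 (-0.53), and on its MOE430B probe set, 15529 to 13698 (-0.18), but not on its dimmest, 2713 to 2823 (0.05). Its mean log2 ratio was -0.22 ± 0.29 (SD, n = 3 probe sets). Dnajb11 (ERdj3), a J-domain partner of BiP, went from 1743 to 1305 (-0.43), and Dnajb9 (ERdj4) from 1264 to 1114 (-0.19).

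Dnajc10 (ERdj5), which reduces disulfide bonds, was at -0.14 ± 0.13 (SD, n = 3 probe sets), with 3900.01 to 3358, 2501 to 2192 and 1398 to 1425. The members on the other side were Hsp90b1 (0.15), Dnajc1 (0.17 ± 0.19, SD, n = 2 probe sets) and Dnajc3 (912 to 1029, 0.17). The sum of the signals of the measured probe sets went from 36863 to 32478 on MOE430A and from 30261 to 26779 on MOE430B, and the largest terms in both sums are those of Hspa5. Such sums weigh the brightest probe sets most. On MOE430A they rose for the stress-inducible (217861 to 226800) and mitochondrial members (39998 to 43235.5). On MOE430B they fell for both (15892 to 12539 and 4973 to 4921). Genes listed for the same compartment or its stress response, outside the symbol rule, were spread evenly. Of 15 measured, 8 were higher and 7 lower, with a median of 0.0048. Their summed signal went from 107930 to 115659 on MOE430A and from 19513 to 19747 on MOE430B. Among them, the chaperone calreticulin (Calr) averaged 0.28 over 3 measured probe sets that ranged from 0.05 to 0.53. The mean of the stress-response factor Atf4, also 0.28, joins 2 measured probe sets that disagreed (-0.03 and 0.60). The brighter Atf4 probe set was slightly lower in the knockout sample, 8086 to 7960. The secreted protein Manf (-0.30) rests on 1 probe set.

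CCAAT, a word that is part of the endoplasmic reticulum stress element, was found in 5 of the 7 endoplasmic reticulum members with a promoter, in 38.7% of the chaperone genes in 42% of the arrays' genes and in 41.1% of all genes. The promoters of Hspa5 and Dnajb11 are printed because these partners both had a mean below 0, and they were chosen after the values were seen. Each shows 3 copies in the 200 bases before its start, in capitals and written ATTGG where the word is on the opposite strand.
Hspa5 (chr2:34771890-34772089, plus strand): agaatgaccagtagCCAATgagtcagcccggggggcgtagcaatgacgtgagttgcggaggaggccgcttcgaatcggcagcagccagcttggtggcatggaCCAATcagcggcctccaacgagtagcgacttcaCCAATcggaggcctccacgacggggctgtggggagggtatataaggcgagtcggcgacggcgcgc
Dnajb11 (chr16:22857645-22857844, plus strand): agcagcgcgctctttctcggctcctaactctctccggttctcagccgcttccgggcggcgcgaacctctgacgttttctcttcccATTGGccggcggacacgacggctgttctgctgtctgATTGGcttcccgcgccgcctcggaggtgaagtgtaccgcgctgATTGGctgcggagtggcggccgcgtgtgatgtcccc

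Of the class A and B J-domain genes, 13 of 17 were measured, 5 higher and 8 lower, with a median of -0.03. The highest were Dnajb12, an endoplasmic reticulum membrane protein, from 754 to 1109 (0.55), its relative Dnajb14, from 1421 to 1627 (0.20), and Dnajb2, from 1014 to 1126 (0.14). The lowest were Dnajb4, Dnajb11 and Dnajb9, given above. Dnaja2, a general HSP70 partner, was lower on all 4 probe sets, of which the brightest went from 20276 to 17729, at -0.15 ± 0.08 (SD, n = 4 probe sets). Dnajb6, which keeps polyglutamine proteins from aggregating, was lower on both, 6457 to 5965 and 2220.13 to 1936, at -0.17 ± 0.06 (SD, n = 2 probe sets). Dnaja3, a mitochondrial partner of Hspa9, was at 0.04 and Dnajb8 at -0.003. The probe sets of Dnajb5 were the least alike, from -0.61 (1149 to 759.7) to 0.54 (1746 to 2560.1).

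The class C genes, which share the J domain and little else, were the family with the most measured genes and had the widest range. Of 27 genes 21 were measured, 13 higher and 8 lower with a median of 0.02. Their SD between genes was 0.30, against 0.32 for all genes, 0.42 for the small heat shock proteins and 0.37 for Bag. It was lower in the other families. The highest class C genes were Dnajc17, a nuclear protein, from 3569 to 5056 (0.51), Dnajc2 (0.20), and Dnajc1 and Dnajc3 (0.17 each). The measured probe set of Dnajc17 was on MOE430B, and its MOE430A probe sets, below the floor, were lower at -0.08 and -0.33. With no floor, Dnajc17 was at 0.03. A further 9 genes, among them the splicing-associated Dnajc8 and the histone chaperone Dnajc9, lay between 0.01 and 0.16, and Dnajc4 and Dnajc5g were at -0.38 and -0.36. The lowest were Dnajc6, Dnajc21 and Dnajc30. Dnajc21, which takes part in ribosome assembly, went from 1704 to 1176 (-0.53), and a further probe set that passed the floor on the wild-type array only gave a bound of at least 1.69-fold lower. Dnajc22 likewise passed it on the wild-type array only, 2391 against 748, at least 2.54-fold lower, the largest bound of any chaperone gene. Its other probe set, below the floor, went from 169 to 157 (-0.11).

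Dnajc6 or auxilin, which strips clathrin from vesicles in neurons, was the lowest measured gene. Its measured probe set went from 4926 to 2845 (-0.79, or 1.73-fold lower), and 3 further probe sets below the floor were also lower, at -0.19, -0.43 and -0.34. Dnajc5, the cysteine string protein of synaptic vesicles, was mixed at -0.19 ± 0.31 (SD, n = 5 probe sets), with 3 probe sets lower, from -0.25 to -0.52, and 2 higher, at 0.03 and 0.23. Neuron markers were lower as well. Of Tubb3, Dcx, Map2, Stmn2 and Elavl3, all 5 were measured and 4 were lower, from -0.09 for Dcx to -0.40 for Elavl3, with Tubb3 at 0.01. Their summed signal went from 123097 to 109392 on MOE430A and from 37340 to 29862 on MOE430B, and none was at 0. Their part in the values of Dnajc6, Dnajc5 and Hspa12a was not tested.

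Of the cytosolic chaperonin CCT, 9 of 10 genes were measured, 7 higher and 2 lower, with a median of 0.13. The subunits that make up its ring are Tcp1, Cct2, Cct3, Cct4, Cct5, Cct6a, Cct7 and Cct8. Summarised after the values were seen, 6 of the 8 were higher and 2 lower, with a median of 0.125 and an SD between subunits of 0.14. Cct7 went from 7969 to 11264 and from 4615 to 5360.03, at 0.35 ± 0.20 (SD, n = 2 probe sets), the highest of the ring. Tcp1 went from 18914 to 20725 (0.12), Cct8 from 4508 to 4873.5 (0.10) and Cct5 from 14801 to 14025 (-0.09).

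The ring subunits with several probe sets did not have them on 1 side, apart from Cct7. Cct4 was at 0.17 ± 0.19 (SD, n = 6 probe sets), 5 of them higher. Cct2 was at 0.18 ± 0.44 (SD, n = 3 probe sets), where the dimmest, 2923 to 4712, gave 0.68, and the brighter ones, 20071 to 20193 and 16798 to 15261, gave -0.0006 and -0.15. Cct6a was at 0.13 ± 0.23 (SD, n = 2 probe sets), and Cct3 at -0.06 ± 0.21 (SD, n = 5 probe sets), where the brightest went from 24887 to 19588. The pooled SD between probe sets was 0.26 in the family. This is the spread of single probe sets, so it does not give the error of the ring median of 0.125. With 1 RNA sample per genotype, the error of that median between samples is unknown.

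Cct8l1, a copy-like relative of Cct8 outside the ring, had the highest ratio of all measured chaperone genes. Its single probe set, on MOE430B, went from 1486 to 2514 (0.76, or 1.70-fold higher), with no further probe set to set against it. Cct6b, the testis form of Cct6a, was below the floor.

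The 5 prefoldin subunit genes with a Pfdn symbol, whose products hand new chains to CCT, were all measured, 4 of them higher with a median of 0.10. The remaining subunit of the complex is encoded by Vbp1, which the symbol rule does not choose, and went from 5474 to 5155 (-0.10). With it, 4 of 6 subunits were higher and the median was 0.10. Pfdn1 went from 1121 to 1654 (0.55), Pfdn4 from 12131 to 12994 (0.10) and Pfdn2 from 3699.88 to 3500.06 (-0.09). Pfdn5 and Pfdn6 each have a probe set that is on both designs, hybridised separately. That of Pfdn6 gave 0.17 on MOE430A (4447 to 5032) and 0.24 on MOE430B (14068 to 16559.9), and that of Pfdn5 gave 0.23 (3254 to 3839) and 0.06 (11050 to 11492). Both shared probe sets were higher in the knockout sample on both designs. A further Pfdn5 probe set, on MOE430A, went from 3661 to 3687 (0.0006), and the mean of Pfdn5 was 0.10 ± 0.12 (SD, n = 3 probe sets, with the shared one counted for each design). Of the genes listed as partners of CCT and prefoldin under other symbols, Vbp1 among them, 1 of 6 was higher and 5 lower, with a median of -0.07 and Pdrg1 highest at 0.25.

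E2f4 is known to bind E2F sites, and the promoters were searched on both strands for the E2F words TTTCCCGC, TTTGGCGC, TTTGCCGC and TTTCGCGC. They were found in 5 of the 75 genes (6.67%), Cct3, Tcp1, Dnajb9, Dnajc9 and Dnajc5g, in 3.81% of the genes the arrays name with a single symbol, and in 2.6% of all genes of the table. Of these 5, the measured ratios were 0.12 for Tcp1, 0.11 for Dnajc9, -0.06 for Cct3, -0.19 for Dnajb9 and -0.36 for Dnajc5g, so 2 of 5 were higher. The promoter of Tcp1 is printed as the ring subunit whose word lies within the 200 bases before the start, 58 bases from it, with the word in capitals. A match of letters is no evidence of binding.
Tcp1 (chr17:12916129-12916328, plus strand): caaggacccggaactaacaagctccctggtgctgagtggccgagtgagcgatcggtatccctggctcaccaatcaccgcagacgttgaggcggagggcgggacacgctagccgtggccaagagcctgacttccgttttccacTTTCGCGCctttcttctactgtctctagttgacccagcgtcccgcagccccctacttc

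The Bag genes, most of which encode nucleotide exchange factors of HSP70, split. Bag4 was at 0.22 ± 0.21 (SD, n = 2 probe sets), from 4396 to 5670.2 and from 1019 to 1074. Bag1 went from 2707 to 3048 (0.16), Bag2 from 1100.3 to 1236 (0.16) and Bag6 from 3375 to 3151 (-0.11). Bag5, which carries several Bag domains, had the lowest ratio. Its MOE430A probe set went from 1406 to 891 (-0.67, or 1.59-fold lower), and a MOE430B probe set below the floor was at -0.29.

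Other partners of HSP70 and HSP90 were more often lower than higher. Of 18 co-chaperones named by other symbols, all were measured, 5 higher and 13 lower, with a median of -0.09. Of all measured genes, 51.4% were lower. The processing alternatives were not run for this list or the other lists outside the symbol rule. The lowest were Fkbp8, an immunophilin that binds HSP90 (-0.43), and Chordc1, an HSP90 partner (-0.40). Each rests on 1 probe set. The highest was Cdc37l1, a relative of the kinase-specific HSP90 partner (0.38), whose 5 measured probe sets ran from -0.09 to 0.88. Over all the pathway genes outside the symbol rule, the mitochondrial protease subunit Clpp (-0.42) also ranked among the 3 lowest, and Calr and Atf4 among the 3 highest. The 2 probe sets of Clpp disagreed, at -0.84 and 0.007, and the brighter went from 3190 to 3227.

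**Figure D3:**
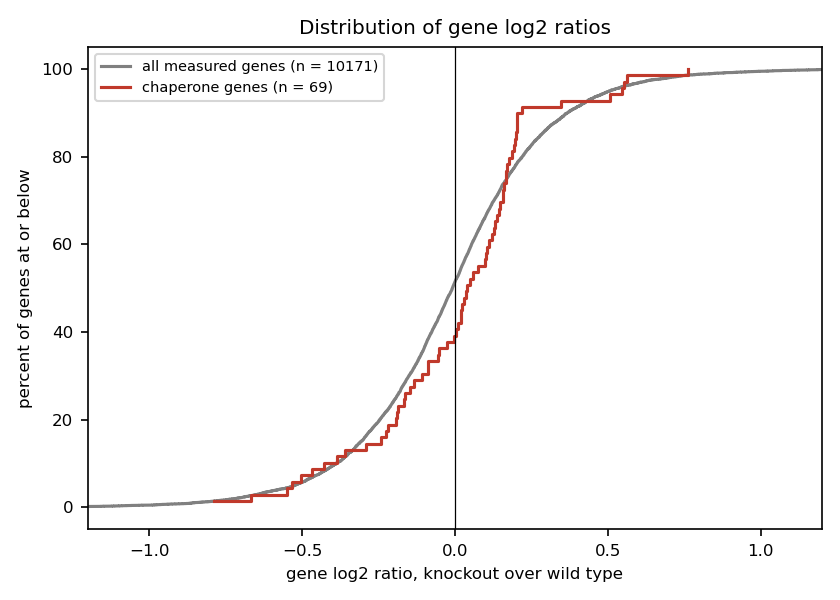
The cumulative share of genes (vertical axis, percent) is plotted against the knockout over wild-type ratio in log2 (horizontal axis, drawn from -1.2 to 1.2). The chaperone curve (red, 69 genes) crosses 0 to the right of the curve of all measured genes (grey, 10171 genes), with 60.9% against 48.6% above 0, and both tails lie close together.

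For a second protein quality control machine, genes with proteasome symbols (Psma to Psmg followed by a number) were set beside the chaperones, a comparison chosen after the values were seen. Of 49 such genes 43 were measured, 21 higher and 22 lower, with a median of -0.00014 and quartiles of -0.07 and 0.08. The chaperone quartiles of -0.16 and 0.17 were farther apart. The symbol rule for the proteasome also takes in Psmc3ip, which is no subunit and was the highest of them at 0.70.

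**Figure D4:**
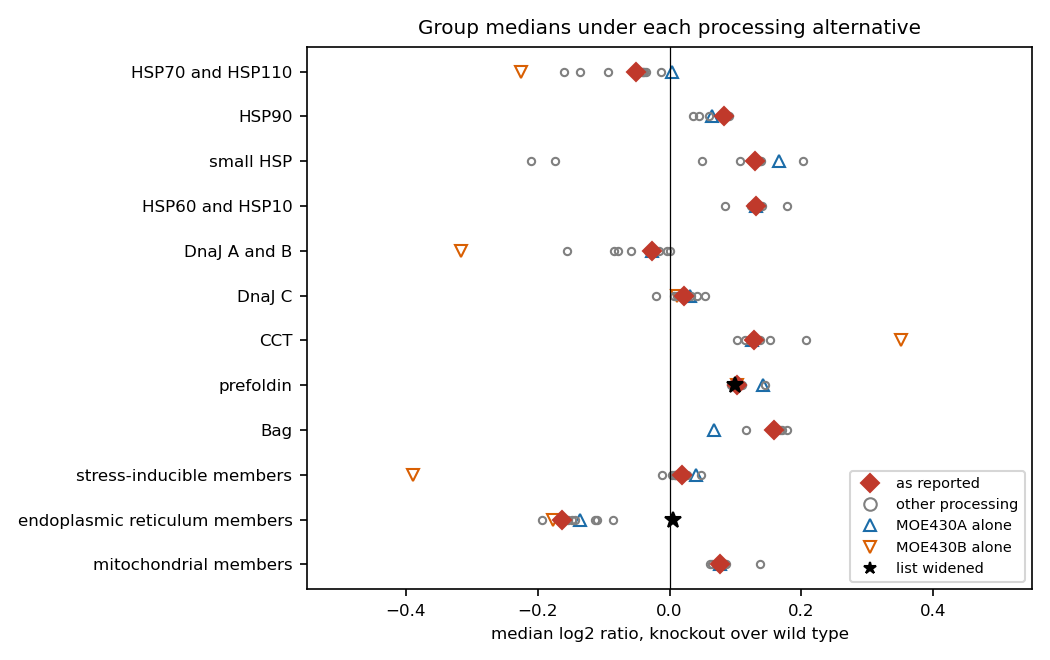
The median log2 ratio of each family or list (rows) is shown as reported (red diamonds) and under each of the 11 processing alternatives that gave a value, with the single-design values as triangles. Stars mark 2 lists widened after the values were seen. CCT, prefoldin, HSP60 with HSP10, HSP90, Bag and the mitochondrial members stay above 0 and the endoplasmic reticulum list below 0 under these, though it comes to 0.005 when widened, while each of the other groups crosses 0. MOE430B alone gave no value for HSP60 with HSP10, HSP90, Bag or the mitochondrial members.

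The families kept or lost their side according to the processing. The medians of CCT (0.10 to 0.35), prefoldin (0.09 to 0.14), HSP60 with HSP10 (0.08 to 0.18), HSP90 (0.04 to 0.09), Bag (0.07 to 0.18) and the mitochondrial members (0.06 to 0.14) were above 0 under every alternative that gave a value. That of the endoplasmic reticulum list was below 0 under all 11, from -0.19 to -0.09, but with Dnajb12 and Dnajb14 added it was above 0 under 9 of the 11 and below under 2, from -0.19 to 0.09, so its side depends on which genes are listed. Those of HSP70 with HSP110, the small heat shock proteins, both J-domain groups and the stress-inducible members each had at least 1 alternative on the other side of 0. The medians that stayed above 0 were not all seen on both designs. MOE430B alone gave no value for HSP60 with HSP10, HSP90, Bag or the mitochondrial members, of which too few genes were measured there. For CCT, 0.35 is the value on MOE430B alone, where the measured genes were Cct8l1 (0.76), outside the ring, and Cct4 (-0.06).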

How the data were processed

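Total RNA from 1 wild-type and 1 knockout neurosphere sample was labelled and hybridised to the MOE430A and MOE430B arrays. The authors deposited intensity values, MAS5 signals on a linear scale, per the submitters' processing notes; no version is given in the sources used here. The mean after trimming 2% at each end is about 1500 on each array (1500.17 to 1500.48), so arrays were scaled before deposit. Both arrays of a design share a hybridisation day, per the file headers written by the instrument, and the designs were kept apart until gene means were taken. The Gapdh 3'/5' signal ratio was 0.862 (wild type) and 0.898 (knockout) on MOE430A, and 0.948 and 0.799 on MOE430B. Control probe sets (64 per design) were left out, and 10399 of 22626 and 9528 of 22511 probe sets were measured.

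Symbols came from the platform annotation; the identifiers of all 91 chaperone genes were found in a RefSeq table (GRCm38.p6) and no symbol differed. Probe sets with several symbols named no gene. Those ending in _x_at, _s_at or _a_at can match more than 1 transcript. For a probe set that passed the floor on 1 array only, a bound was taken as that array's signal divided by the floor.

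The genes named were all HSP90, HSP60, HSP10, CCT, prefoldin and Bag genes, the 3 highest and 3 lowest of each other family, the stress-inducible and endoplasmic reticulum lists, genes with a bound of 1.5-fold or more, and genes whose probe sets lay more than 1.0 apart. Other genes given with values, among them Hspa4, Dnaja2, Dnaja3, Dnajb6, Dnajb8, Dnajc4, Dnajc5, Dnajc5g, Dnajc8 and Dnajc9, lie outside this rule and were picked once their values were known. The members, lists and rules were chosen with earlier results of these data known. The log2 computation was tested on simulated data. The number of arrays limits the precision. Computations ran in Python 3.11.15 with pandas 2.3.3 and numpy 2.4.6. The lowess fit came from statsmodels 0.14.6.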

Additional observations from a re-analysis of the deposited data

How the results depend on the processing

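Of the 11 alternatives, the count of 2-fold different chaperone genes was above 0 in 2: 1 gene (Dnajc22) with the 30th percentile of signals as the floor, and 8 of 91 with no floor, where 17.5% of all genes were past 2-fold. The median over the chaperone genes was above 0 in 10 of them and -0.0042 on MOE430B alone, where 13 of 26 genes were higher. With no floor, Dnajb4 turned from -0.47 to 0.065, since its dim probe sets entered the mean. Among family medians, the class A and B J-domain genes reached 0.0007 with quantile normalization, HSP70 with HSP110 0.004 on MOE430A alone, class C J-domain genes -0.02 with the 30th percentile as floor, the small heat shock proteins -0.17 with the 70th percentile and -0.21 without probe sets ending in _x_at, _s_at or _a_at, and the stress-inducible members -0.01 with no floor and -0.39 on MOE430B alone. The endoplasmic reticulum list turned from -0.16 to 0.0054 with Dnajb12 and Dnajb14 added, and prefoldin stayed at 0.10 with Vbp1 added, both chosen after seeing the data. Otherwise the cause of these shifts was not tested. With no floor Dnajc6 moved to -0.44 and Hspa14 to 0.21, and with a pseudocount equal to the floor, which shrinks ratios by construction, Dnajc6 was at -0.22 and Bag5 at -0.24. Dnajc11 turned on whether its brightest probe set alone was used (0.31) or all were, with no floor (-1.25). No paired analysis was possible because there was 1 RNA sample per genotype, and leaving out a replicate was not possible for the same reason.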

Other observations

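Some probe sets carry chaperone symbols together with another symbol and entered no gene value. The probe sets shared by Dnajc19, a mitochondrial import protein, and its pseudogene went from a wild-type signal of 1035 to a knockout signal of 1155 on MOE430A (log2 ratio 0.15) but from 1775 to 1169 on MOE430B (-0.60). A MOE430B probe set shared by Pfdn2 and Klhdc9 was at -0.29, on the same side as the probe set of Pfdn2 alone (-0.09).

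A few dim probe sets, named after their values were seen, were far apart although both arrays were below the floor. Dnajc5b, a relative of the cysteine string protein, went from 36.9 to 559, and Dnajb7 from 259.9 to 49.5. Hspa2, an HSP70 best known from testis, went from 121 to 832, and only the knockout signal passed the floor, at least 1.13-fold higher.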
